A study of Mus musculus with 11 samples.

Results

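Interferon-inducible GTPases were followed in RNA sequencing of mouse cancer cells and lymphatic endothelial cells (LECs) grown alone or sorted after co-culture. The genes were chosen by name and by the cell line whose values were given, with 6 in HaCa4 cells (*Gbp3*, *Gbp7*, *Igtp*, *Irgm1*, *Iigp1*, and *Tgtp1*) and 1 in LECs (*Gbp5*). They are 7 of the 458 genes with values, of which 290 were listed for HaCa4 and 191 for LECs. HaCa4 is a skin squamous carcinoma cell line, and the LECs, labelled imLEC, are a conditionally immortal line. Cells grown alone gave 2 HaCa4 control and 3 LEC control libraries, and cells sorted after 24 h of co-culture of these cell lines gave 3 HaCa4-sorted and 3 LEC-sorted libraries. In the co-cultures the cancer cells carried the dye CFSE and the LECs were recognised by CD31, the product of *Pecam1*, so that FACS sorting and co-culture go together and cannot be told apart. The LECs carry a large T antigen transgene under the interferon-responsive promoter of a class I histocompatibility gene and are expanded in medium with IFN-γ, which is withdrawn before functional assays. Whether the sequenced LECs had been withdrawn from IFN-γ was not given in the sources used here, and more than one clone was in use in the study. The labels do not say whether replicates were separate cultures, so the p-values measure the spread between these libraries, which may be technical.

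The interferon-inducible GTPases belong to several families of cell-autonomous defence proteins, which bind and hydrolyse GTP and gather on the membranes that enclose intracellular pathogens. The guanylate-binding proteins (GBPs) are large GTPases of the dynamin superfamily. The immunity-related GTPases (IRGs) are smaller and fall into effectors, such as *Iigp1* (Irga6) and *Tgtp1* (Irgb6), and regulators, such as *Irgm1* and *Igtp* (Irgm3), which keep the effectors inactive on the membranes of the host cell. Their transcription is induced by IFN-γ and, to a varying degree, by type I interferon. The responsible DNA elements are the GAS and the ISRE, the latter bound by interferon regulatory factors.

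The promoters of the GTPases are shown first. The genes were chosen as interferon-inducible, and the motif letters after these windows had been read. The shares of matches are therefore a description and no test. RefSeq promoter windows of GRCm38.p6, from 250 bases before to 50 bases after each start, were found for 6 of the 7 genes, all but *Iigp1*. Each of the 6 genes held the core of the ISRE, that is GAAA, any 2 bases, and GAAA again, on one strand or the other (TTTC, any 2 bases, and TTTC when read on the opposite one). In the stretches below, which run 5′ to 3′ on the strand of the gene and end no later than the annotated gene begins, capitals mark the matches.
*Gbp3*, chr3:142559974-142560015, plus strand: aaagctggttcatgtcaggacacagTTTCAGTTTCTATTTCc
*Gbp7*, chr3:142530258-142530317, plus strand: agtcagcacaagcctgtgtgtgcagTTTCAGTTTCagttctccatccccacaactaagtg
*Gbp5*, chr3:142496744-142496803, plus strand: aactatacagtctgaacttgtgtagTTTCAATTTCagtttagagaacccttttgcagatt
*Igtp*, chr11:58199497-58199555, plus strand: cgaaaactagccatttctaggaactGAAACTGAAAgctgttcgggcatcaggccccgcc
*Irgm1*, chr11:48871421-48871475, minus strand: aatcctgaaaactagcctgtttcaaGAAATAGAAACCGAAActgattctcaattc
*Tgtp1*, chr11:48992289-48992348, minus strand: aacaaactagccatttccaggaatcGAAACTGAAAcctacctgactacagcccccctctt

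In *Gbp3* and *Irgm1* the capitals span 16 bases, because 2 matches overlap there, and in the other 4 genes they span 10. The first matching base lay 30 bases before the start in *Irgm1*, 34 in *Igtp*, 45 in *Gbp3*, 53 in *Gbp7*, 77 in *Tgtp1*, and 165 in *Gbp5*. *Gbp3* has a further promoter window, which held no match. Of all 32851 windows in the table, 3.44% held this ISRE-type match. Counted by gene, 3.99% of all 27025 genes with a window held it, and 27 of the 203 listed HaCa4 genes with a window. The core of the GAS, that is TTC, any 3 bases, and GAA, reads the same on both strands. It was found in *Gbp7*, *Igtp*, *Tgtp1*, and *Gbp5*, and in 9.55% of all genes with a window (8.30% of all windows). In *Igtp* and *Tgtp1* the GAS-type match began 11 bases before the ISRE-type match, inside the stretch shown and without overlapping it. A match is a description of the letters and does not show binding. The shares of genes with each kind of match were plotted for the GTPases and for the other listed genes.

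**Figure D1:**
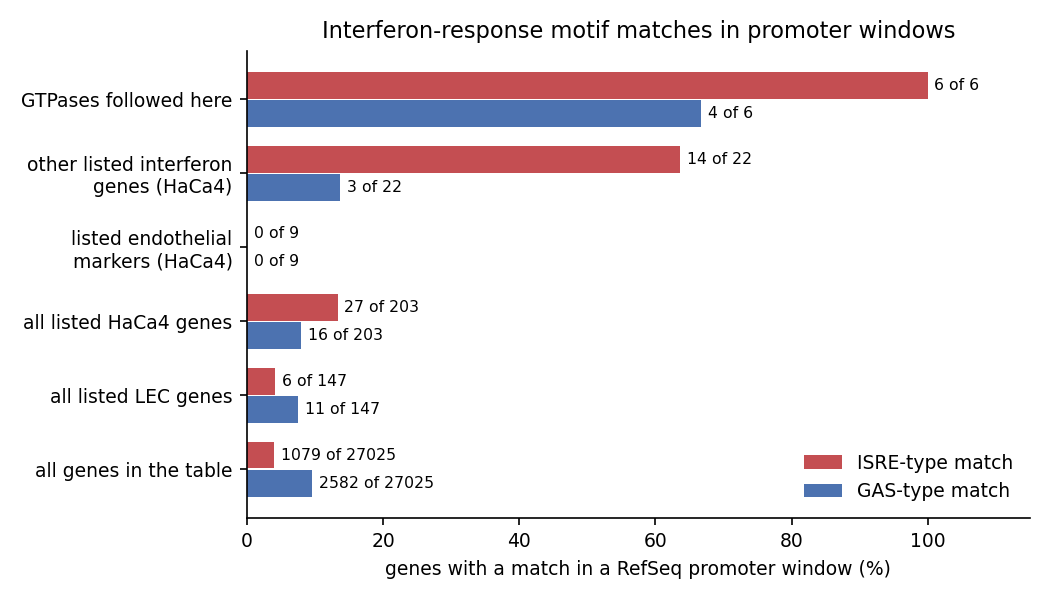
Share of genes (%) with an ISRE-type or GAS-type match in any of their RefSeq promoter windows, with the number of genes beside each bar. The motif letters were chosen after the windows of the GTPases had been read. All 6 GTPases with a window held the ISRE-type match, against 14 of 22 other listed interferon genes, 0 of 9 listed endothelial markers, and 1079 of 27025 genes in the table.

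The 3 GBPs lie together and the IRGs are spread over 3 places. *Gbp5*, *Gbp7*, and *Gbp3* are direct neighbours on chromosome 3, from 142496934 to 142573213, with no other protein-coding gene of RefSeq between them. *Irgm1* (48865245 to 48871420), *Tgtp1* (48985329 to 48992246), and *Igtp* (58199556 to 58207592) lie on chromosome 11, where 134 protein-coding genes separate *Igtp* from *Tgtp2*, which lies near *Tgtp1*, and *Iigp1* lies on chromosome 18 from 60373616 to 60392634. *Tgtp2* (49057196 to 49064212) is a near copy of *Tgtp1*, with 1244 of 1248 coding bases identical in GENCODE M21. Reads could therefore have been divided between *Tgtp1* and *Tgtp2*, and the level of each is uncertain. Among the 7 GTPases themselves, the coding sequences of *Gbp3* and *Gbp7* were the most similar, at 76.5% identity, followed by those of *Igtp* and *Irgm1*, at 65.4%.

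The values are TPM, transcript abundances scaled by transcript length and library total, so that levels may be compared between genes. They keep no record of read numbers, and the depth of the libraries is unknown. Differences between sorted and control libraries were taken in log2(TPM + 1), where the added 1 makes changes of low values look smaller, and were tested by limma with a mean-variance trend, two-sided, with p-values adjusted by the Benjamini-Hochberg method over all listed genes of the cell line. A gene passed when its log2 difference was at least 0.5 in size and its adjusted p at most 0.05. The authors called genes as changed between these groups by a count model at the same thresholds, and the listed genes are a selection that appears to follow such calls, so that the GTPases are listed because of these libraries. For HaCa4 the authors reported fewer changed transcripts than are listed, so a listed HaCa4 GTPase need not be one of their calls. For LECs both numbers were the same. The shares of genes that passed describe that selection and not the transcriptome, and a call here is not independent of it.

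All 6 GTPases had a higher level in every HaCa4-sorted library than in both HaCa4 controls, and 0 of the 6 passed both thresholds with limma, whereas 3 had an unadjusted p under 0.05 (*Igtp*, *Irgm1*, and *Gbp3*). Of all 290 listed HaCa4 genes, 63.1% had all sorted libraries above both controls, 15.9% passed in the higher direction, and 32.8% had an unadjusted p under 0.05 in that direction. The log2 differences of the 6 GTPases ranged from 0.86 to 1.80 with a median of 1.13, and the median over all 290 listed genes was 0.74. In bulk RNA, a change in the share of cells and a change in transcript level per cell cannot be told apart. The GTPases are described below by role, with the GBPs first.

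*Gbp3*, a GBP that gathers with other GBPs at pathogen-containing vacuoles, had 1.98 and 1.16 TPM in HaCa4 controls 1 and 2 and 2.79, 7.15, and 12.58 TPM in sorted replicates 1 to 3. Sorted replicate 3 was the highest and replicate 1 lay nearest to the controls. The means were 1.57 ± 0.58 TPM (SD, n = 2) and 7.51 ± 4.90 TPM (SD, n = 3), a ratio of 4.78. The log2 difference was 1.56 (standard error 0.60, adjusted p = 0.0722 from limma). *Gbp7*, a GBP linked to the oxidative defence of phagocytes, had 1.36 and 0.61 TPM in single culture against 1.86, 1.66, and 6.29 TPM after sorting. Only sorted replicate 3 stood well apart from the controls. *Gbp7* had the least certain difference of the 6, at 0.97 (standard error 0.58, adjusted p = 0.159 from limma), and its 95% interval from -0.44 to 2.37 included 0.

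Among the regulatory IRGs, *Irgm1*, which is needed for resistance to mycobacteria and has roles in autophagy, was the most abundant GTPase of the 6 in every HaCa4 library. Its level was 11.28 and 8.76 TPM in single culture, and 16.86, 18.63, and 36.66 TPM in sorted replicates 1 to 3. Replicates 1 and 2 were close to each other, and replicate 3 was the highest. The control mean was 10.02 ± 1.78 TPM (SD, n = 2) and the sorted mean 24.05 ± 11.0 TPM (SD, n = 3), a log2 difference of 1.11 (standard error 0.36, adjusted p = 0.0543 from limma). *Igtp*, an IRG of the endoplasmic reticulum required for resistance to *Toxoplasma*, had 0.87 and 0.74 TPM in HaCa4 control against 3.87, 3.09, and 11.54 TPM in HaCa4-sorted. Its controls differed little and lay far below all sorted libraries. *Igtp* had the largest difference of the 6, at 1.80 (standard error 0.58, adjusted p = 0.0542 from limma), and the ratio of its mean TPM was 7.66.

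The effector IRGs were the scarcest. *Tgtp1*, an early IRG effector at the parasite vacuole, was listed at 0 in both controls and had 0.24, 1.79, and 2.16 TPM in sorted replicates 1 to 3. *Iigp1*, the best studied IRG effector, was likewise listed at 0 there and reached 0.16, 0.95, and 1.66 TPM after sorting. Replicate 1 was close to the controls in both genes, and no fold is given against a level of 0. The differences in log2(TPM + 1) were 1.15 for *Tgtp1* (standard error 0.49, adjusted p = 0.0869 from limma) and 0.86 for *Iigp1* (standard error 0.43, adjusted p = 0.115 from limma), and they depend on the pseudocount. In HaCa4-sorted cells the levels ran in the order *Irgm1*, *Gbp3*, *Igtp*, *Gbp7*, *Tgtp1*, and *Iigp1* by mean TPM. The sorted libraries of *Irgm1* did not overlap with those of *Gbp3*, and the ranges of all later neighbours overlapped. *Iigp1* was the lowest of the 6 in each sorted library.

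**Figure D2:**
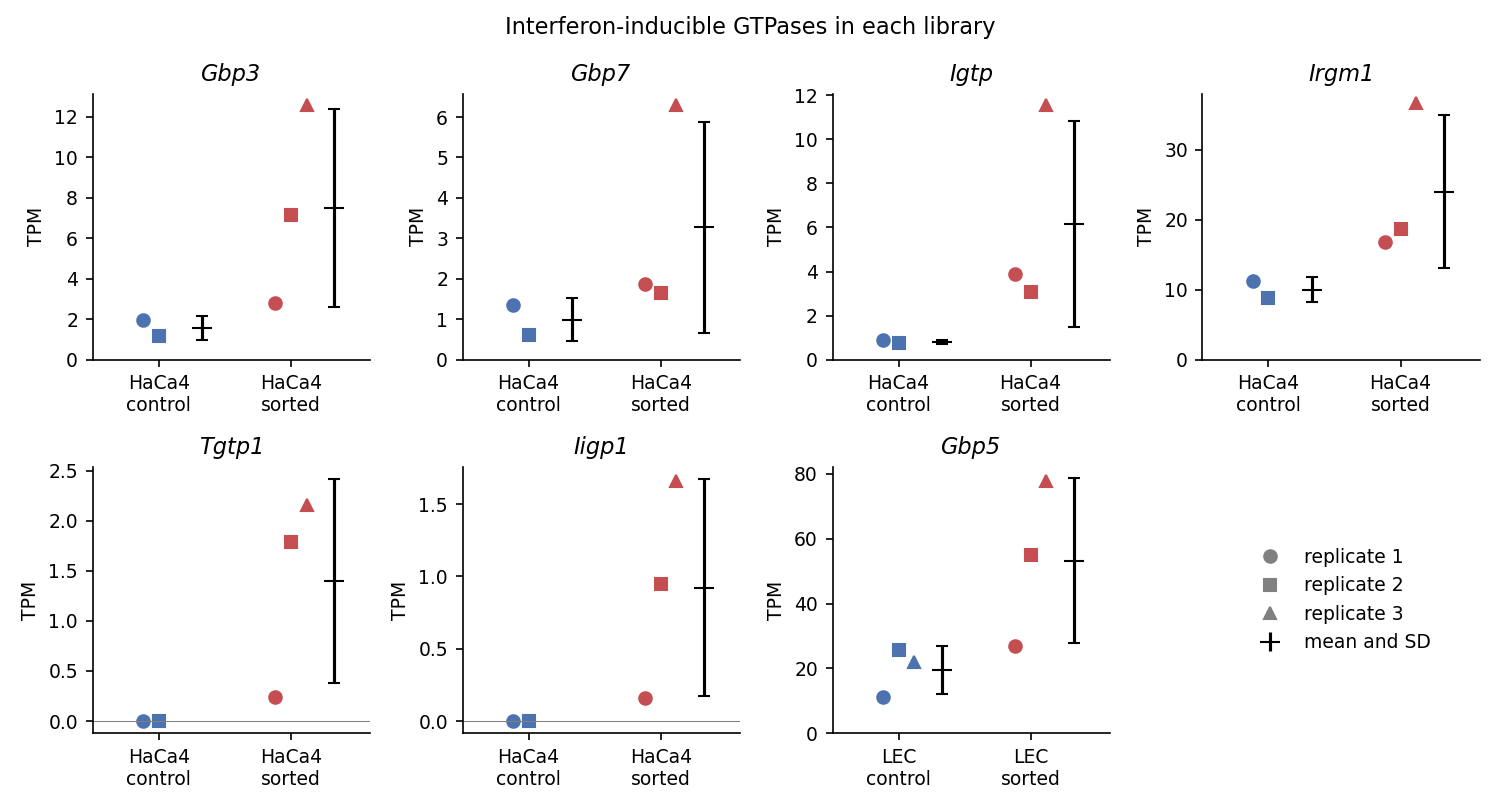
TPM of each GTPase by library, with controls in blue, sorted libraries in red, symbols for the replicate number, and bars for the mean and SD where no library is at 0. Sorted replicate 3 was the highest library for all 7 genes, and *Irgm1* reached 36.66 TPM and *Gbp5* 77.77 TPM there.

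These calls depended on the treatment of low values and on single libraries. With a pseudocount of 0.1, 5 of the 6 GTPases passed, all but *Gbp7*, where 41.4% of the listed genes passed in the higher direction. Without HaCa4-sorted replicate 1, which held the lowest sorted value of *Gbp3*, *Irgm1*, *Tgtp1*, and *Iigp1*, the same number passed, again all but *Gbp7*, against 50.3% of the listed genes. Without sorted replicate 3, the highest library of all 6, the differences fell to between 0.50 (*Gbp7*) and 1.31 (*Igtp*). There 0 of the 6 passed, as did 0 of all listed genes. With control 1 left out the differences lay between 0.86 and 1.86, and with control 2 left out between 0.69 and 1.75. When libraries were set to an equal median over the listed genes, which shifted log2 differences by a median of -0.72, the 6 differences stayed positive between 0.30 (*Irgm1*) and 1.28 (*Igtp*), and *Igtp* and *Tgtp1* passed, against 17.2% of the listed genes. Among genes with a mean of at least 1 TPM, *Igtp* and *Irgm1* passed, against 29.9% of the genes left, and at 10 TPM or more *Irgm1* alone was left and passed, against 36.2%. A block for the replicate number leaves sorted replicate 3 without a control of its number, so that the difference rests on the other libraries. With it *Irgm1* passed at a difference of 0.77, against 22.8% of the listed genes. When the second control was numbered 3 as in its file, sorted replicate 2 had no such control instead. *Irgm1* then did not pass (adjusted p = 0.105 from limma), and 0 of the 6 passed.

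The other genes of the interferon pathway were taken from fixed lists. Of 20 further interferon-inducible GTPases, 3 were listed for HaCa4, and 0 of the 3 passed with limma (1 had an unadjusted p under 0.05, *Gvin1*). *Gbp9*, a GBP on chromosome 5, had 1.01 and 0.86 TPM in single culture against 1.62, 4.59, and 4.82 TPM after sorting (adjusted p = 0.0864 from limma). *Tgtp2* was at 0 and 0.09 TPM in single culture and at 0.29, 1.34, and 1.87 TPM after co-culture (adjusted p = 0.0955 from limma), the same order of sorted libraries as its near copy *Tgtp1*. *Gvin1*, a very large inducible GTPase, had 0.01 TPM in each control against 0.68, 10.31, and 5.11 TPM after sorting (adjusted p = 0.0613 from limma), so that replicate 2 was its highest library, unlike in the 6 GTPases above. Among the 24 ligand, receptor, and signalling genes, 5 were listed and 3 passed, all of them higher, where 15.9% of all listed HaCa4 genes did. These 3 calls, like those of all 290 listed genes, were lost without control 2, without sorted replicate 3, or with limma without its trend. *Usp18*, which restrains signalling at the type I interferon receptor, rose by a log2 difference of 2.78 (standard error 0.73, adjusted p = 0.0386 from limma). *Irf7* and *Irf9*, transcription factors of the type I response, rose by 2.02 (adjusted p = 0.0424) and 1.58 (adjusted p = 0.0405). *Stat2* had a log2 difference of 1.11 (adjusted p = 0.0925 from limma).

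Of 73 antiviral interferon-stimulated genes, 23 were listed for HaCa4, and all 23 had a positive log2 difference, with a median of 1.29. Of all 290 listed HaCa4 genes, 192 had a higher sorted than control mean, and the median log2 difference was 0.74. With limma, 7 passed, all in the higher direction, against 15.9% of all listed genes, and these calls were lost under the same 3 settings. Of the 3 most abundant, *Isg15*, a ubiquitin-like modifier, rose from 5.84 and 5.51 TPM to 29.95, 21.17, and 107.96 TPM (adjusted p = 0.0366 from limma). *Lgals3bp*, a secreted glycoprotein, rose by a log2 difference of 1.03 (adjusted p = 0.0475 from limma), and *Ifi27* had a difference of 0.94 (adjusted p = 0.0548 from limma). Of 35 genes for interferon-induced antigen presentation and chemokines, 0 were among the listed HaCa4 genes, so their levels are unknown here.

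**Figure D3:**
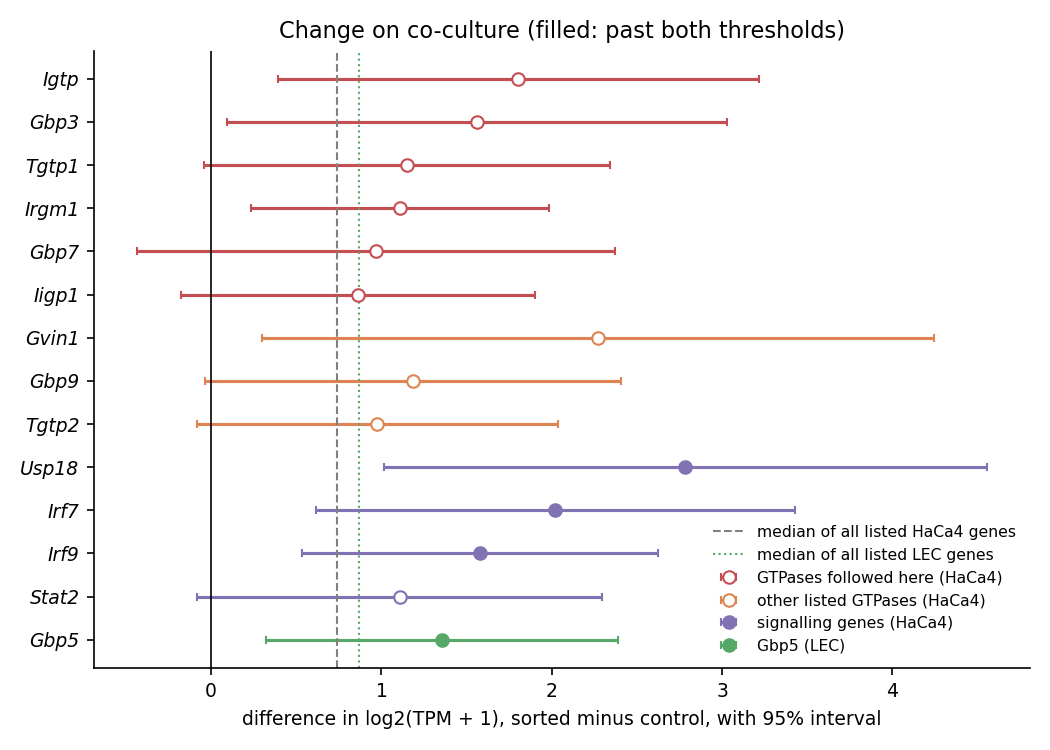
Difference in log2(TPM + 1), sorted minus control, with its 95% interval from limma for the 6 HaCa4 GTPases (red), other listed GTPases (orange), 4 of the 5 listed signalling genes (purple), and *Gbp5* in LECs (green). Filled points passed both thresholds. Among the 6 GTPases, the intervals of *Gbp7*, *Tgtp1*, and *Iigp1* include 0, and the dashed line marks the median of all listed HaCa4 genes, 0.74, and the dotted line that of all listed LEC genes, 0.87.

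Endothelial transcripts were also measured in the HaCa4-sorted libraries, and their values are given beside those of the GTPases. Of 42 endothelial markers, 21 were listed for HaCa4, and all 21 had a positive log2 difference, 18 had all sorted libraries above both controls, and 2 passed. Of all 290 listed HaCa4 genes, 192 had a higher sorted than control mean. All sorted libraries lay above both controls in 63.1% of the 290, and 15.9% passed in the higher direction. Their summed level was 4.08 and 3.10 TPM in the controls, with 11 of the 21 at 0 in each, and 20.1, 300.2, and 131.8 TPM in sorted replicates 1 to 3. *Cdh5*, the endothelial cadherin, was listed at 0 in single culture and had 1.11, 29.73, and 13.78 TPM after co-culture. *Pecam1* had 0.14 and 0.04 TPM in single culture and 1.29, 24.25, and 9.38 TPM after co-culture. The order of the sorted libraries differed between these lists. All 21 endothelial markers were highest in replicate 2. Of the 192 listed genes with a higher sorted than control mean, 106 were highest there. All 6 GTPases and 29 of 31 other listed interferon genes were higher in replicate 3 than replicate 2, against 82 of these 192. From replicate 1 to replicate 2 the endothelial markers differed by a median ratio of 17.2, the GTPases by 1.83, and the 192 genes by 3.68. The 2 GTPases *Gbp7* and *Igtp* were lower in replicate 2 than in replicate 1, as were 67 of the 192 genes. *Tgtp1* and *Iigp1*, which were listed at 0 in the controls, had 11.1% and 9.64% of their highest level in replicate 1. Without sorted replicate 2, the library with the most endothelial transcripts, the log2 differences of the 6 GTPases lay between 0.81 and 2.12, and only *Igtp* passed (adjusted p = 0.0400 from limma), against 19.3% of the listed genes. The part of endothelial transcripts in the levels of the GTPases was not tested, as 0 of the 6 had values for LECs here. The 4 listed keratinocyte markers of 37 summed to 320.9 and 409.9 TPM in single culture and to 246.6, 233.5, and 275.7 TPM after co-culture. The sum was mostly *Krt8*, which fell, as did *Krt6b* by a log2 difference of -1.87 (adjusted p = 0.0366 from limma), whereas *Krt19* rose by 0.97 (adjusted p = 0.0441 from limma).

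**Figure D4:**
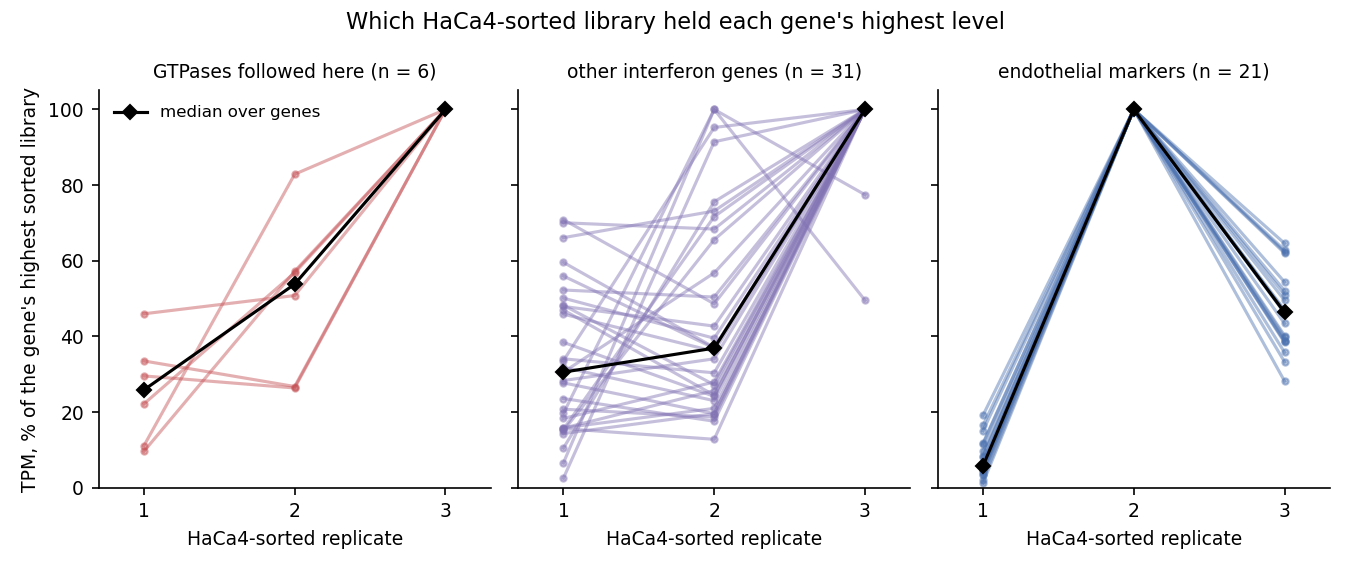
TPM in each HaCa4-sorted library as a percentage of the gene's highest sorted library, with a line per gene and black diamonds for the median. Replicates have no order, and the lines only join the values of a gene. The GTPases were highest in replicate 3, with medians of 25.9% in replicate 1 and 53.8% in replicate 2, and the endothelial markers were highest in replicate 2, with medians of 5.80% in replicate 1 and 46.4% in replicate 3.

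The listed genes with the most similar profile over the 5 HaCa4 libraries were found by the root mean square difference of centred log2(TPM + 1) values, as a description. The nearest gene to *Irgm1* was *Lgals3bp* (0.087), and *Parp14* (0.148) was also among its 3 nearest. *Gbp7* was nearest to *Stat2* (0.124), before *Parp14* (0.154). *Igtp* was nearest to *Irf7* (0.225), before *Xaf1* (0.227) and *Oas2* (0.254). *Gbp3* was nearest to *Bst2* (0.214), the gene of the antiviral protein tetherin, before *Bgn* (0.310) and *Tgtp1* (0.315). *Iigp1* was nearest to *Cmpk2* (0.066), before *Tgtp2* (0.084) and *Phf11d* (0.135), and *Tgtp1* to *Gbp9* (0.075), before *Cmpk2* (0.136) and *Tgtp2* (0.137). The 3 nearest genes of each GTPase were all in the interferon lists or among the 6 GTPases, except *Bgn*, which encodes an extracellular matrix proteoglycan. Of the 290 listed HaCa4 genes, 31 were in the interferon lists, beside the 6 GTPases. *Tgtp2* is the near copy of *Tgtp1*, and reads could have been divided between them. The measure is small for genes that vary little, which favours low genes such as *Iigp1*.

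In LECs, *Gbp5*, a GBP that promotes assembly of the NLRP3 inflammasome, rose on co-culture. It had 11.11, 25.55, and 21.88 TPM in LEC controls 1 to 3 and 26.81, 55.05, and 77.77 TPM in LEC-sorted replicates 1 to 3. The groups did not overlap, although sorted replicate 1 lay just above control replicate 2. The LEC control mean was 19.5 ± 7.51 TPM (SD, n = 3) and the LEC-sorted mean 53.2 ± 25.5 TPM (SD, n = 3), a ratio of 2.73, and the log2 difference was 1.35 (standard error 0.44, 95% interval 0.32 to 2.39, adjusted p = 0.0191 from limma). Of the 191 listed LEC genes, 63.9% passed in the higher direction and 63.9% had all sorted libraries above all controls, and the median log2 difference over all of them was 0.87. *Gbp5* no longer passed when LEC control replicate 1 (adjusted p = 0.0593), LEC-sorted replicate 2 (0.0583), or LEC-sorted replicate 3 (0.0729) was left out, each from limma, where 58.6%, 58.1%, and 60.2% of the listed genes passed. When libraries were set to an equal median, which shifted log2 differences by a median of -0.61, the difference was 0.75 and did not pass (adjusted p = 0.151 from limma), against 24.1% that did.

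Few genes of the interferon lists had values for LECs beside *Gbp5*. Of the 20 further GTPases and the 73 antiviral genes, 0 were among the listed LEC genes. Their levels in LECs are therefore unknown here. Of the 27025 genes with a promoter window, 147 were listed for LECs. The 24 signalling genes and the 35 antigen presentation and chemokine genes each had 1 listed member. *Socs3*, a feedback inhibitor of JAK-STAT signalling by several cytokines, rose from 38.07, 40.69, and 43.39 TPM to 83.28, 86.68, and 64.22 TPM (log2 difference 0.91, adjusted p = 0.00408 from limma). Its lowest sorted library was replicate 3, which was the highest for *Gbp5*. *H2-DMa*, which loads peptides onto class II molecules, fell, with 7.12, 6.01, and 5.32 TPM in single culture and 3.06, 1.52, and 1.86 TPM after co-culture (log2 difference -1.21, adjusted p = 0.00727 from limma). The genes with the profile most like that of *Gbp5* over the 6 LEC libraries were *Sh2d5* (0.257), *Serpina3f* (0.347), and *Iqgap2* (0.358). Transcripts of the cancer cells could be followed by the keratin gene *Krt8*, the only keratinocyte marker listed for LECs, which had no TPM above 0 in single culture and 0.19, 2.19, and 0.89 TPM after sorting, against 205.34 to 238.24 TPM in HaCa4-sorted cells. The endothelial receptor *Kdr* was at 136.83 to 171.50 TPM in LEC control and 88.48 to 116.71 TPM in LEC-sorted. The part of cancer cell transcripts in the level of *Gbp5* was not tested, and *Gbp5* had no values for HaCa4 here.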

How the data were processed

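The authors filtered the reads with SOAPnuke 1.5.2, aligned them to GRCm38.p6 with HISAT 2.0.4, and deposited TPM values per gene and library, rounded to 2 decimals. They called differential expression between the same groups with a count model at a log2 fold change of 0.5 and a q-value of 0.05. The listed genes appear to be selected by such calls, although the exact list rule for HaCa4 and the tool that gave the TPM values were not given in the sources used here. Between 1.84% and 3.85% of the total TPM of a library was listed, so scaling factors from these genes are biased. None was applied to the differences given as the main result, and only the alternative with an equal median used them. Most listed genes were higher in the sorted libraries, so that this scaling moved the differences down. Depth is unknown, and no counting error can be given. At most 5 genes had the same value above 0 in a pair of replicates. Fits used limma 3.58.1 in R 4.3.3 on log2(TPM + 1), separately for HaCa4 and LECs and without a replicate term, and were tested on simulated data. Since TPM are not counts, a count test was not run. No low values were filtered. Genes were matched by Entrez ID to RefSeq for positions and promoter windows. Coding sequences came from GENCODE M21 and were aligned with Biopython. Plots were made with Python 3.11.15 and matplotlib 3.10.9. The text names all 7 GTPases, every other listed GTPase and, with 1 exception that is not reported here, signalling gene of the interferon lists, the 3 most abundant listed genes of each other interferon list, and the genes among the 3 most like each GTPase, with the same exception. *Cdh5*, *Pecam1*, *Kdr*, and 3 keratin genes stand for the marker lists, *Kdr* and the keratin genes being chosen after their values were seen. The genes and lists were chosen with earlier results of these data known, and the motif letters after the promoter windows had been read.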

Additional observations from a re-analysis of the deposited data

How the results depend on the processing

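The direction of all 7 GTPases was kept under each alternative that gave a value. For each of the 7 every sorted library lay above every control, so only the scaling to an equal median could have reversed it. The number of the 6 HaCa4 GTPases that passed was 0 as reported, 5 with a pseudocount of 0.1, 2 with a mean TPM of at least 1 (4 of the 6 left) and 1 with at least 10 (only *Irgm1* left), 2 with libraries scaled to the same median, 1 with the replicate block, and between 0 and 5 with a library left out. Of the listed HaCa4 genes, 87 passed as reported (46 higher, 41 lower), 177 with a pseudocount of 0.1, 33 with 5, 145 after scaling (50 higher, 95 lower), 39 with a log2 threshold of 1, 22 with the replicate block and the second control numbered 3 as in its file, and between 0 and 194 with a library left out. Without the trend 0 passed with limma, although 161 had an unadjusted p under 0.05, and the same was true without control 2 (70) and without sorted replicate 3 (126). Without control 1, 6 passed. Of the listed LEC genes, 184 passed, 110 after scaling (46 higher, 64 lower), 95 with a log2 threshold of 1, and between 165 and 177 with a library left out. The log2 difference of *Gbp5* was 0.75 after scaling and between 1.01 and 1.77 with a library left out. The cause of these changes was not tested. Same-numbered deviations from the group means correlated across genes at 0.23, 0.07, and -0.02 in LECs, so the numbers were not taken to pair those libraries. In HaCa4 the correlations were 0.23 and 0.28 for the same number. With 2 controls, the crossed values of -0.23 and -0.28 mirror these by construction and add nothing. These groups share only 2 numbers, too few to decide. With the replicate block, *Gbp5* had the same difference and an adjusted p of 0.001 from limma. *Irgm1* passed with the replicate block, but 0 of the 6 GTPases did with the second control numbered 3 (*Irgm1* adjusted p = 0.105 from limma). In HaCa4 a sorted library without a control of its number adds nothing to the difference under the block. That library was sorted replicate 3 with the label numbers and sorted replicate 2 with the second control numbered 3.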
